A study of Homo sapiens with 9 samples.

Results

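The genes described here are 37 DNA replication and S phase genes, chosen by gene symbol from the 34934 rows of a table of estimated counts. All 37 had a row, and all 37 passed the filter on low counts that left 17042 genes. They fall into 7 roles: origin licensing (10 genes), helicase activation (4), primase and polymerase (4), clamp, loader and fork (9), nucleotide supply (4), G1/S regulators (3) and histone supply (3). UNG, a DNA repair enzyme, was placed under nucleotide supply.

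Copying the genome once per cell cycle depends on a machinery that is built at replication origins before S phase and activated when S phase begins. The origin recognition complex with CDC6 and CDT1 loads the MCM2 to MCM7 helicase onto DNA. CDC45 and the GINS complex then turn it into an active helicase, and primase, polymerases, the PCNA clamp and its loader carry out synthesis. Many of these genes are known targets of E2F transcription factors, which are held back by the retinoblastoma protein in resting cells.

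RNA was measured in TC71 cells, an established human Ewing sarcoma line, recovered from NSG mice, which lack mature lymphocytes and natural killer cells but keep myeloid cells. Per the series' design text, 100 cells in diluted Matrigel were injected beneath the flank skin, and flow cytometry recovered the cancer cells of each site once tumours measured 1.5 cm. The groups were 4 bone marrow metastasis libraries, 4 lung metastasis libraries and 1 primary tumour library. All are of the same line, and the labels name no treatment or allele. The labels give neither the animal behind each library nor any pooling, so p-values measure only the spread between these libraries, which may be technical. In bulk RNA, a lower share of cells in S phase and less RNA of a gene per cell cannot be told apart.

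Estimated counts summed to 14159456 to 17911515 per bone marrow library, 11550045 to 13219016 per lung library and 12354111 in the primary library. Bone marrow and lung libraries did not overlap in total count, in reads assigned to human (77.6 to 79.1% and 72.7 to 77.3%), in reads not aligned (18.9 to 20.3% and 20.4 to 24.7%) or in mitochondrial ribosomal RNA (0.0956 to 0.218% and 0.359 to 0.491% of reads). Each had a p of 0.0286 by an exact two-sided permutation test, which is the least that 4 against 4 can give, or 0.05 after adjustment over 7 measures. Reads assigned to human and reads not aligned mirrored each other across libraries, so they do not count as separate differences. Bone marrow replicate 1 and lung replicate 3 were the lowest or highest of their groups for many of the genes below, and values without them are given where they matter. Of 11 Ewing sarcoma markers, CAV1, STEAP1, CD99, CCND1, PRKCB and NR0B1 were above 40 CPM in every library, and NKX2-2 was at 2.59 to 21.2 CPM. LIPI was at 13.1 to 144 CPM in bone marrow, against 35.2, 0.0704, 216.5 and 0.436 CPM in lung, and GLI1 was at 0 in 6 of 9 libraries. FLI1, the usual partner of EWSR1 in the fusion, was at 0 to 0.781 CPM, and whether the counting assigned reads of a fusion transcript to it is not known from the labels. EWSR1 separated the sites, at 196, 365, 668 and 312 CPM in bone marrow, against 132, 158, 82.0 and 168 CPM in lung (edgeR adjusted p = 0.35, DESeq2 adjusted p = 0.0241). The Ewing list summed to 2700 to 4360 CPM in bone marrow, 2700 to 3840 CPM in lung, with 4030 CPM in the primary library. Of 11 leukocyte markers, CSF1R was at 0 in every library, and the list summed to 3.12 to 12 CPM in bone marrow, 2.77 to 42 CPM in lung, with 6.93 CPM in the primary library. Within that list CD68, a macrophage marker, was lower in every bone marrow library than in any lung library, at 0.444, 0, 0 and 0 CPM against 20.9, 7.82, 0.994 and 2.25 CPM (edgeR adjusted p = 0.381, DESeq2 adjusted p = 0.00345). LYZ separated the sites the other way, at 0.587 to 1.53 CPM in bone marrow, against 0 to 0.563 CPM in lung (edgeR adjusted p = 0.497). Red cell markers summed to 17.2 to 115 CPM in bone marrow, 3.64 to 172 CPM in lung, with 8.05 CPM in the primary library, and lung and vessel markers to 36 to 102, 27.4 to 145 and 53.1 CPM, with SCGB1A1 at 0 throughout. AGER was above 0 only in lung replicates 2 and 3 (1.17 and 1.41 CPM), and SFTPC only in lung replicates 3 and 4 (0.745 and 0.0726 CPM). All 5 tested lung and vessel markers were lower on average in bone marrow, and 0 passed in edgeR (lowest adjusted p = 0.484). The markers are human genes counted on hg38, whereas the host was a mouse, so they do not directly measure host cells. Reads assigned to mouse were 7.35 to 7.75% in bone marrow, 7 to 8.09% in lung and 7.45% in the primary library. Between the sites the exact permutation test gave a p of 0.543 for this measure. The part of these markers and library measures in the results below was not tested.

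Promoters were examined first, since E2F sites are the shared feature for which these genes are best known. RefSeq promoter windows of 300 bases (GRCh38.p14, 250 before to 50 after the transcript start) had a single entry for 27 of the 37 genes. The words TTTCCCGC, TTTCGCGC, TTTGCCGC and TTTGGCGC, 4 spellings of an E2F site, were searched on both strands, where matches may overlap. At least 1 match stood in 13 of the 27 windows, or 48.1%, against 3.31% of all 35116 windows and 4.1% of 22199 windows of protein-coding genes. Origin licensing genes held a match in 5 of 7 windows, and histone supply genes in 0 of 3. Other motifs differed less. The CCAAT box (CCAAT) was in 59.3% of the 27 windows, against 34.6% of all windows and 34.7% of windows of protein-coding genes. In the same order, the GC box (GGGCGG) was in 74.1%, 45% and 56.3%. The CHR element (TTTGAA) was in 3.7%, 15.2% and 12.4%, and the TATA box (TATAAA) in 0%, 11.5% and 9.47%. A match is a description of these letters and not evidence of binding.

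Stretches upstream of 3 of these genes are shown, because MCM3 and POLA1 were among the largest differences between sites and MCM6 held the most matches. Capitals mark the matches, and each stretch is written 5′ to 3′ on the gene's own strand and lies outside the gene body annotated in GENCODE 29. In MCM6, overlapping matches on the 2 strands form a block that occurs 2 times, whereas the MCM3 and POLA1 stretches hold 1 match each. Another MCM3 match, from base -4 to base 4 around the transcript start, lies outside the stretch shown.
MCM6 (chr2:135876444-135876603, minus strand, 160 bases): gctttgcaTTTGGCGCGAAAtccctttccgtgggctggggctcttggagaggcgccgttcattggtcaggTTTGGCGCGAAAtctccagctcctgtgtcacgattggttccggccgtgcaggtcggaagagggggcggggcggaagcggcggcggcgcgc
MCM3 (chr6:52284882-52284942, minus strand, 61 bases): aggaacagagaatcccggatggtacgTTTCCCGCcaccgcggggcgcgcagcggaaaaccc
POLA1 (chrX:24693768-24693916, plus strand, 149 bases): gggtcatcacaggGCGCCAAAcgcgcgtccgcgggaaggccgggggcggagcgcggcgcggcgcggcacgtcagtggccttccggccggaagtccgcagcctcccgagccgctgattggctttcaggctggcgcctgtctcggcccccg

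Levels are given as CPM, counts relative to a fixed library total, after TMM scaling between libraries (edgeR's trimmed mean of M values). To compare genes with each other, the mean CPM of a group was divided by the median length of the gene's coding transcripts in GENCODE 29. Per kilobase, RPA2, a subunit of the protein that coats single-stranded DNA, was the highest at 515 CPM per kb in bone marrow, 420 in lung and 460 in the primary library. The sliding clamp PCNA followed with 283, 339 and 254 CPM per kb. At the other end stood E2F1, with 1.54, 1.17 and 2.45 CPM per kb, and the licensing factor CDT1, with 2.07, 2.05 and 1.07. The order thus ran over more than 2 orders of magnitude, and the same 5 genes were the lowest in every group: CDT1, ORC1, MCM7, E2F1 and CCNE1.

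Between some genes that share a function the levels were unequal. Cyclin E2 (CCNE2) was at 73.7 CPM per kb in bone marrow, 48.6 in lung and 52.1 in the primary library, whereas cyclin E1 (CCNE1), which binds the same kinase CDK2, was at 2.40, 2.25 and 2.37. Among the MCM helicase subunits, which assemble in equal numbers as protein, MCM6 and MCM4 had 43.0 CPM per kb each in bone marrow and MCM7 had 3.34. MCM7 was also the lowest of the 6 in lung, at 1.61 CPM per kb, and in the primary library, at 2.15. MCM7 overlaps AP4M1 on the other strand by 392 bases. CCNE2 overlaps INTS8 by 1977 bases and NDUFAF6 by 912 bases, also on the other strand, and other members have such overlaps too. The sources used here do not give the strand setting of the counting, so its part in these levels is not known. Of the 37 genes, 8 have processed pseudogenes named after them in GENCODE 29, among them PCNA, RPA2, RRM2 and TYMS. How shared reads were divided is not known, so those levels are uncertain.

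**Figure D1:**
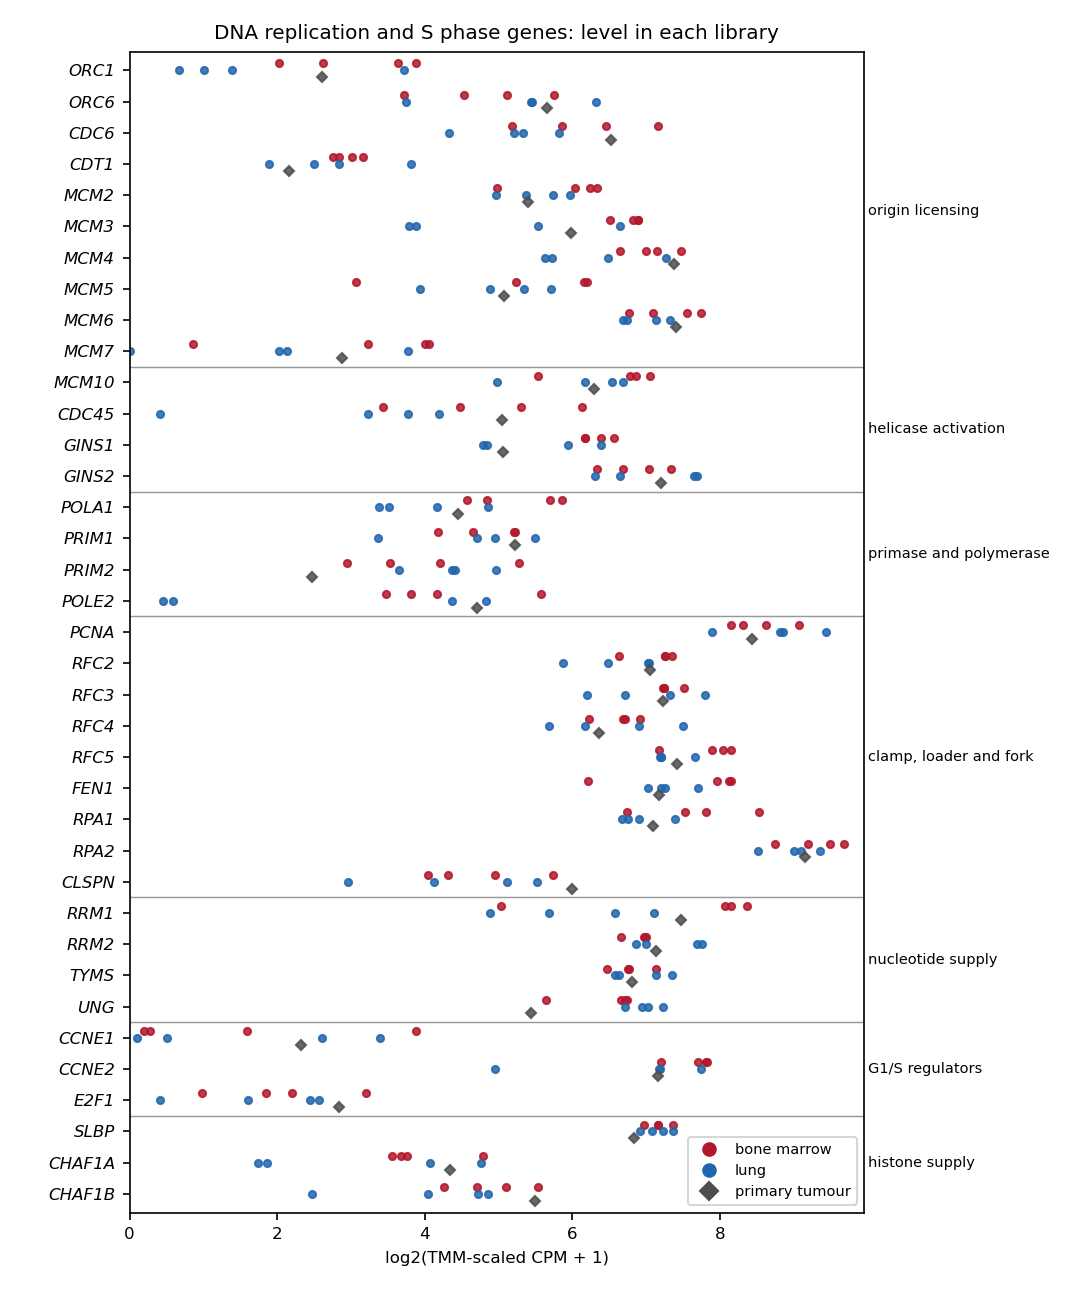
Level of the 37 DNA replication and S phase genes in each of 9 libraries, as log2(TMM-scaled CPM + 1) on the horizontal axis, grouped by role. Points are single libraries of bone marrow (red), lung (blue) and primary tumour (grey diamond). No gene separates the bone marrow from the lung libraries. POLE2, MCM7, CDC45, CCNE1 and E2F1 reach down to near 0 in lung libraries, and CCNE1, MCM7 and E2F1 also fall to 0.148, 0.814 and 0.976 CPM in bone marrow libraries.

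The first comparison asked whether replication genes differ between tumour cells of bone marrow and of lung metastases. In bone marrow, 29 of the 37 genes were higher on average and 8 were lower, while 49.9% of all genes tested had a log2 fold change above 0. The median log2 fold change was 0.43, against 0.00 over all genes tested, and the values ran from -0.55 (ORC6) to 1.84 (CDC45). In edgeR's quasi-likelihood test 0 of 37 passed a Benjamini-Hochberg adjusted p of 0.05, where 0.00587% of all genes did; the lowest adjusted p was 0.475. At an unadjusted p under 0.05, 2 genes were higher and 0 lower, against 6.33% and 3.88% of all genes. DESeq2 and limma voom also called 0 of 37, against 3.38% and 0.0352% of genes, with lowest adjusted p of 0.155 and 0.312. For 0 of 37 genes did every bone marrow library lie above every lung library, and for 0 did every one lie below, where 2.82% and 3.06% of all genes separated in these directions. With 4 against 4 libraries the same test found 2% of simulated 2-fold changes and 40% of 4-fold changes, with 3 false calls. Changes were simulated only in genes above a set average level, so these shares hold for such genes alone. The sensitivity for genes of low level, such as ORC1, CDT1, MCM7, E2F1 and CCNE1, was not tested.

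Origin licensing genes were higher in bone marrow for 9 of 10, and their log2 fold changes had a median of 0.58. MCM3, a helicase subunit (chromosome 6, 52264009 to 52284881, hg38), was at 89.6, 118, 112 and 117 CPM in bone marrow replicates 1 to 4, against 45.5, 98.8, 12.8 and 13.7 CPM in lung replicates 1 to 4, and at 62.4 CPM in the primary library. All 4 bone marrow libraries were alike, while lung replicates 3 and 4 were low and lung replicate 2 lay within the bone marrow range. On the log2 scale the fold change was 1.35 ± 0.63 (SE; edgeR adjusted p = 0.486), and 2.19 without lung replicate 2.

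CDC6, the ATPase that recruits the helicase to origins, was at 35.2, 142, 57.0 and 86.7 CPM in bone marrow, against 19.0, 36.1, 55.6 and 39.2 CPM in lung, and at 91.1 CPM in the primary library. The lowest bone marrow library, replicate 1, lay within the lung range and the other 3 lay above it. The fitted log2 fold change was 1.10 ± 0.49 (SE; edgeR adjusted p = 0.486), and 0.67 without bone marrow replicate 2. ORC1, the ATPase subunit of the origin recognition complex, was at 11.5, 13.7, 5.14 and 3.06 CPM in bone marrow, against 0.594, 1.62, 12.2 and 1.02 CPM in lung. Lung replicate 3 lay between bone marrow replicates 1 and 2, the other 3 lung libraries lay below all of bone marrow, and the primary library held 5.06 CPM. ORC6, another subunit of that complex, was the exception in direction, at 30.1 ± 17.4 CPM in marrow metastases, against 44.0 ± 27.1 CPM in lung metastases (SD, n = 4 each).

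The other MCM subunits overlapped widely between sites. MCM2 was at 62.1 ± 21.9 CPM in marrow metastases, against 46.1 ± 13.8 CPM in lung metastases, MCM4 at 136 ± 32.4 and 85.3 ± 48.5 CPM, and MCM6 at 161 ± 47.9 and 126 ± 27.3 CPM (SD, n = 4 each). MCM5 had its extremes within bone marrow, at 7.4, 72.1, 70.4 and 36.5 CPM, against 14.3, 39.4, 51.3 and 28.5 CPM in lung. The lowest of all 9 libraries was bone marrow replicate 1. MCM7 was at 0.814, 15.0, 8.34 and 15.6 CPM in bone marrow, against 12.6, 3.38, 0 and 3.05 CPM in lung. It had no count in lung replicate 3, which allows up to 3 counts or 0.248 CPM (counting error only), and its log2 fold change of 1.06 ± 1.33 (SE) was smaller than its error. It was 2.21 without lung replicate 1 and 0.65 without lung replicate 3. CDT1, the loading factor that geminin inhibits, was at 6.72 ± 0.959 CPM in marrow metastases, against 6.63 ± 4.49 CPM in lung metastases.

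Helicase activation genes were higher in bone marrow for 3 of 4, and their log2 fold changes had a median of 0.57. CDC45, which completes the active helicase (chromosome 22, 19479459 to 19520612, hg38), had the largest fold change of the 37 genes. It was at 9.77, 68.9, 38.5 and 21.3 CPM in bone marrow, against 12.7, 8.38, 0.331 and 17.2 CPM in lung, and at 31.9 CPM in the primary library. The first bone marrow library fell inside the lung range and lung replicate 3 was near 0. This gave a log2 fold change of 1.84 ± 0.98 (SE; edgeR adjusted p = 0.510). GINS1 and GINS2, subunits of the same complex, differed in direction: GINS1 was at 79.8 ± 10.9 CPM in marrow metastases, against 49.5 ± 27.3 CPM in lung metastases, and GINS2 at 118 ± 35.0 and 146 ± 66.3 CPM (SD, n = 4 each). The firing factor MCM10 was at 100.3 ± 37.9 CPM in marrow metastases, against 73.7 ± 31.6 CPM in lung metastases.

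POLA1, the catalytic subunit of the polymerase that starts each DNA strand (chromosome X, 24693919 to 24996986, hg38), had the smallest p of the 37 genes. It was at 22.9, 27.6, 57.1 and 51.0 CPM in bone marrow, against 16.9, 28.1, 9.44 and 10.4 CPM in lung, and at 20.9 CPM in the primary library. Lung replicate 2 lay just above bone marrow replicate 2, and the other 3 lung libraries lay below all bone marrow libraries. On the log2 scale the fold change was 1.29 ± 0.51 (SE; edgeR unadjusted p = 0.0323, adjusted p = 0.475). Its primase partners were nearly level, PRIM1 at 28.4 ± 9.41 CPM in marrow metastases, against 27.1 ± 14.2 CPM in lung metastases, and PRIM2 at 18.2 ± 13.9 and 20.4 ± 7.61 CPM. POLE2, a subunit of the leading strand polymerase, was at 46.9, 10.1, 13.1 and 17.0 CPM in bone marrow, against 27.4, 19.6, 0.497 and 0.363 CPM in lung. Lung replicates 3 and 4 were near 0 while lung replicates 1 and 2 exceeded 3 of the bone marrow libraries.

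The clamp, loader and fork group was higher in bone marrow for 7 of 9 genes, and their log2 fold changes had a smaller median of 0.29. RPA1, the largest subunit of the single-strand binding protein (chromosome 17, 1829702 to 1900082, hg38), was at 106, 224, 368 and 184 CPM in bone marrow, against 166, 101, 118 and 107 CPM in lung, and at 135 CPM in the primary library. Only the first bone marrow library was within the lung range, and the other 3 lay above it. The fitted log2 fold change was 0.84 ± 0.37 (SE; edgeR unadjusted p = 0.0495, adjusted p = 0.486), and 0.48 without bone marrow replicate 3. RPA2 was at 637 ± 169.8 CPM in marrow metastases, against 519.6 ± 120 CPM in lung metastases (SD, n = 4 each).

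Of the small clamp loader subunits, RFC5 was at 143, 263, 284 and 236 CPM in bone marrow, against 146, 202, 146 and 144.5 CPM in lung (log2 fold change 0.54 ± 0.26 SE, edgeR adjusted p = 0.491). The first of these lay just below 3 lung libraries that were within a few CPM of each other. RFC2 was at 141 ± 28.9 CPM in marrow metastases, against 102 ± 35.4 CPM in lung metastases, RFC3 at 158 ± 16 and 139 ± 65.2 CPM, and RFC4 at 99.7 ± 19.3 and 105 ± 57.7 CPM (SD, n = 4 each). PCNA itself was at 538, 392, 318 and 284 CPM in bone marrow, against 236, 462, 689 and 447 CPM in lung. Both its lowest and its highest library were from lung. FEN1, which trims the ends of Okazaki fragments, was at 73.1, 283, 248 and 278 CPM in bone marrow, against 152, 207, 145.4 and 129 CPM in lung. The first bone marrow library was the lowest of all 9 and the other 3 bone marrow libraries were the highest. The checkpoint mediator CLSPN was at 29.2 ± 16.7 CPM in marrow metastases, against 25.5 ± 17.1 CPM in lung metastases.

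The nucleotide supply list, which includes the repair enzyme UNG, had log2 fold changes below 0 for 3 of 4, and the median was -0.32. UNG had the lowest value, -0.49, while RRM1, RRM2 and TYMS were at 1.55, -0.47 and -0.17. RRM1, the large subunit of ribonucleotide reductase (chromosome 11, 4094707 to 4138876, hg38), was at 31.6, 282, 330.1 and 266 CPM in bone marrow, against 94.4, 50.3, 28.6 and 137 CPM in lung, and at 176 CPM in the primary library. Bone marrow replicates 2 to 4 exceeded every lung library and replicate 1 was near the lowest. This gave a log2 fold change of 1.55 ± 0.70 (SE; edgeR adjusted p = 0.486). Its small subunit RRM2 was at 99.9, 124, 127 and 126 CPM in bone marrow, against 127, 205, 214 and 115 CPM in lung (log2 fold change -0.47 ± 0.26 SE, edgeR adjusted p = 0.528; -0.31 without lung replicate 3). The subunits of the enzyme thus had fold changes of opposite sign, and the difference between them was not tested. Thymidylate synthase TYMS was at 110.3 ± 21.2 CPM in marrow metastases, against 124 ± 33.0 CPM in lung metastases. Uracil-DNA glycosylase UNG, which removes uracil from DNA, was at 48.8, 104, 106 and 100.2 CPM in bone marrow, against 103, 122, 149 and 129 CPM in lung.

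The G1/S regulators and histone supply genes were each higher in bone marrow for 3 of 3, with medians of 0.39 in both groups. CCNE2 was at 224, 226, 207 and 146 CPM in bone marrow, against 143, 213, 30.1 and 144 CPM in lung. The sites overlapped through lung replicate 2, and lung replicate 3 was far below the other 8 libraries. CCNE1 ranged from 0.148 to 13.7 CPM in bone marrow and from 0.0726 to 9.52 CPM in lung. E2F1 was at 2.59, 0.976, 3.61 and 8.21 CPM in bone marrow, against 2.04, 4.44, 0.331 and 4.94 CPM in lung. At these levels single libraries of a site lay far apart. SLBP, which binds the stem-loop of histone mRNA, had the smallest ratio of highest to lowest library, at 143 ± 16.1 CPM in marrow metastases, against 142 ± 18.8 CPM in lung metastases. The histone chaperone subunits CHAF1A and CHAF1B averaged 15.4 ± 7.46 and 30.4 ± 11.6 CPM in marrow metastases, against 11.7 ± 11.5 and 18.4 ± 10.7 CPM in lung metastases (SD, n = 4 each).

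**Figure D2:**
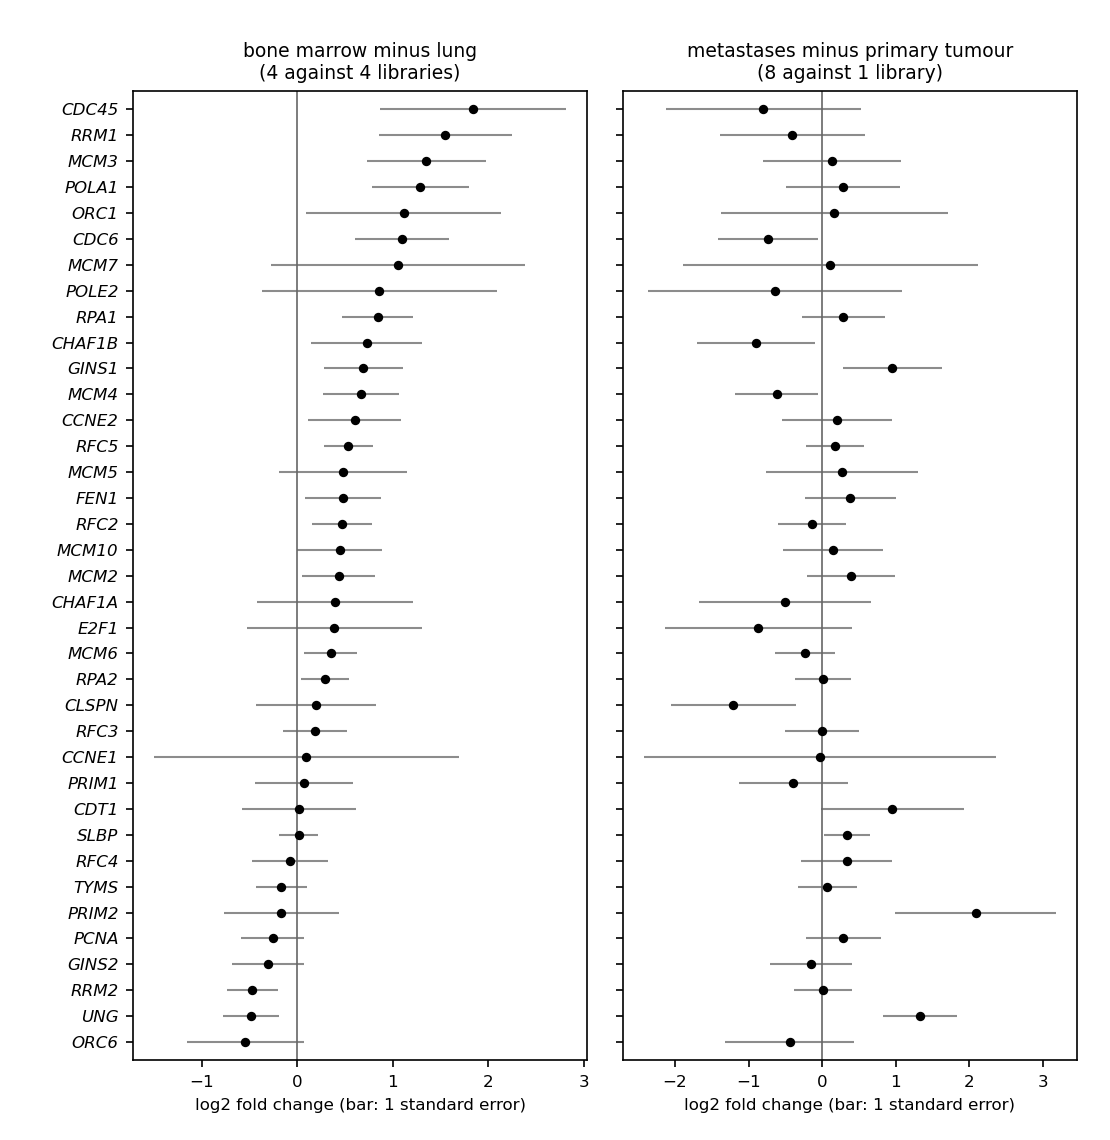
Log2 fold change of each of the 37 genes with a bar of 1 standard error on the horizontal axis, for bone marrow minus lung (left) and for metastases minus the primary library (right), in the order of the left panel. In the left panel 29 genes lie above 0 and CDC45, RRM1, MCM3 and POLA1 lead; in the right panel 21 lie above 0, and no gene passed the test in either.

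Genes with and without an E2F match in their promoter window can be set side by side. In bone marrow against lung, 11 of 13 genes with a match and 12 of 14 without were higher in bone marrow, with medians of 0.39 and 0.46 on the log2 scale. Against the primary library, 6 of 13 with a match and 7 of 14 without were higher in metastases, with medians of -0.0018 and 0.056. These values are descriptions and were not tested.

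Across libraries, the 37 genes moved together in some samples and apart in others. Their median level, as log2(CPM + 1), was 5.58, 6.71, 6.57 and 6.66 in bone marrow replicates 1 to 4, against 5.97, 5.74, 5.63 and 5.44 in lung replicates 1 to 4, and 6.0 in the primary library. Bone marrow replicates 2 to 4 lay above every lung library and replicate 1 lay among them. Summed over the genes, the level was 3294, 4660, 4627 and 4032 CPM in bone marrow, against 3349, 3573, 3329 and 3260 CPM in lung, with 3583 CPM in the primary library, so that bone marrow replicates 2 to 4 were again the highest. Bone marrow replicate 1 also had the largest share of reads outside annotated features, 6.97% against 3.08 to 4.39% in the other bone marrow libraries, and the smallest share of tested genes at 0, 6.91% against 8.93 to 11.6%. Their part in its low replication levels was not tested. Without it the median log2 fold change of the 37 genes was 0.55, and without it and lung replicate 3 it was 0.41, with 29 genes higher and 0 passing. The medians of 4 roles moved by more than 1.5 times without both: to 0.18 for primase and polymerase, -0.105 for nucleotide supply, 0.21 for G1/S regulators and 0.14 for histone supply.

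Lung replicate 3 had the lowest value of all 9 libraries for 13 of the 37 genes, among them CDC45, MCM3, MCM7, CCNE2, E2F1 and POLA1, and the highest for 7, among them PCNA, RFC3 and RFC4. Over all genes tested it was lowest for 13.2% and highest for 15.2%, and 14.9% of tested genes had no count in it, more than in any other library. Bone marrow replicate 2 was highest for 13 of the 37 genes, where it was highest for 10.9% of all genes. Lung replicate 4 was lowest for 8, where it was lowest for 9.08% of all genes. The spread within a site was larger in lung for 25 of 37 genes, with a median SD of log2(CPM + 1) of 0.54 in bone marrow and 0.77 in lung. Over 9436 genes in the same range of average level it was larger in lung for 57.6%, with medians of 0.62 in bone marrow and 0.72 in lung.

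**Figure D3:**
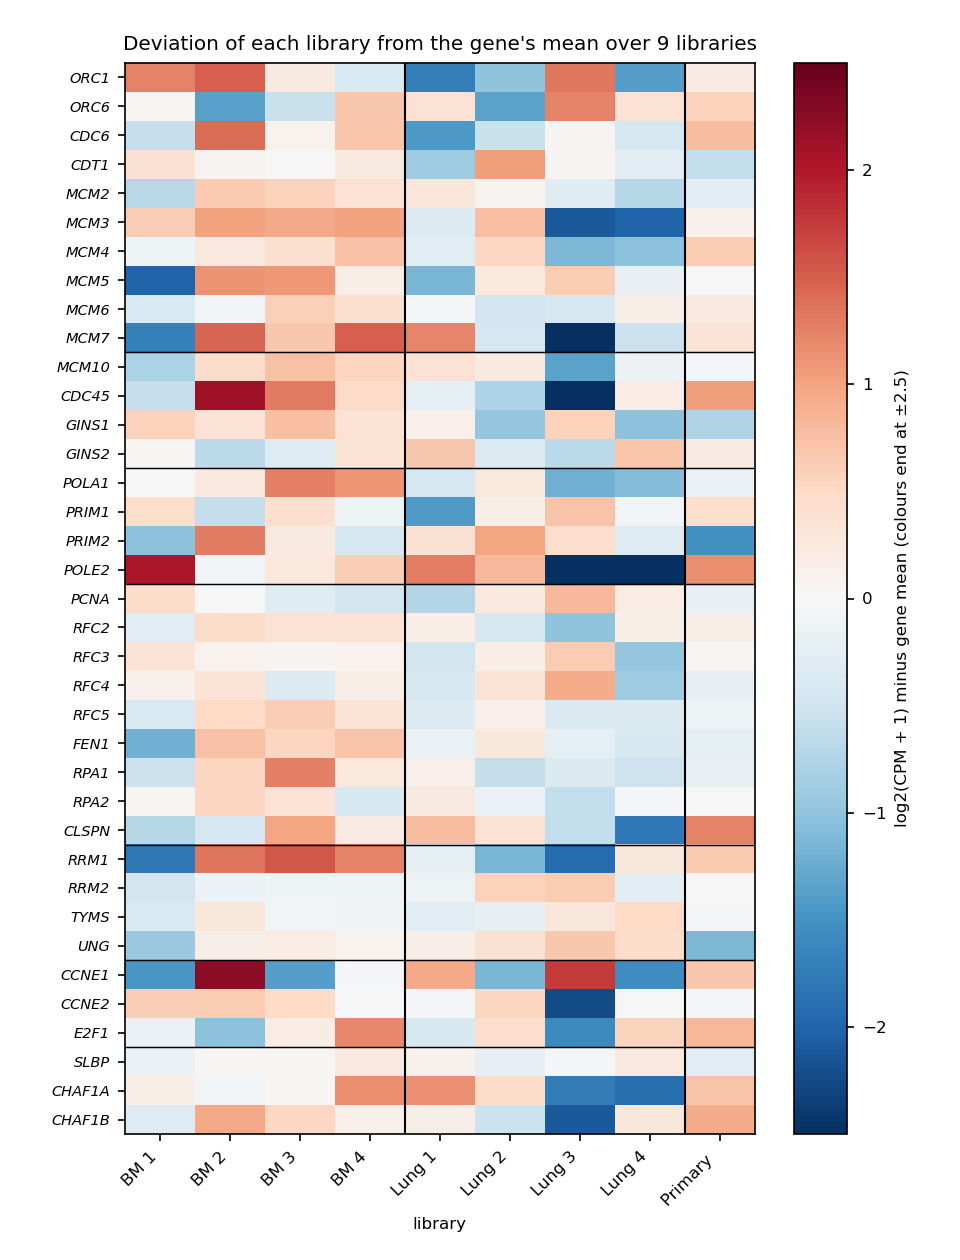
Deviation of each library from the gene's own mean over 9 libraries, on the log2(CPM + 1) scale, with genes in rows grouped by role and libraries in columns (BM is bone marrow). Bone marrow replicates 2 to 4 are mostly red; lung replicate 3 is blue for MCM3, MCM7, CDC45, POLE2, CCNE2 and CHAF1B and red for PCNA, RFC3 and RFC4, and bone marrow replicate 1 is blue for MCM5, FEN1 and RRM1.

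A further list held other replication genes. Of 43 listed, all tested, 26 were higher and 17 lower in bone marrow, and their log2 fold changes had a median of 0.23. The count passing was 0 in edgeR (6 higher and 1 lower at an unadjusted p under 0.05), 0 in limma voom and 2 in DESeq2, both of these higher in bone marrow. Over all genes the shares were 6.33% and 3.88% at the unadjusted p and 3.38% in DESeq2. RFC1, the large subunit of the clamp loader, was at 43.4, 49.1, 27.5 and 24.4 CPM in bone marrow, against 10.7, 7.04, 4.39 and 6.25 CPM in lung, and at 42.8 CPM in the primary library. The sites did not overlap, unlike for RFC2 to RFC5, and the fold change on the log2 scale was 2.35 ± 0.45 (SE; edgeR adjusted p = 0.299, DESeq2 adjusted p = 8.45e-06). MTBP, which helps origins fire, was at 52.0 ± 18.6 CPM in marrow metastases, against 14.6 ± 7.27 CPM in lung metastases, with an edgeR adjusted p of 0.381 and a DESeq2 adjusted p of 0.0181. POLE4, a small polymerase epsilon subunit, separated the sites the other way, at 18.6 ± 6.65 CPM in marrow metastases, against 38.0 ± 11.9 CPM in lung metastases (SD, n = 4 each), with an edgeR adjusted p of 0.484 and a DESeq2 adjusted p of 0.154.

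Genes that control entry into S phase gave 18 of 30 higher in bone marrow, and their log2 fold changes had a median of 0.19. The count passing was 0 in edgeR (3 higher and 1 lower at an unadjusted p under 0.05), 0 in limma voom and 2 in DESeq2, both higher in bone marrow, beside the same shares over all genes (6.33%, 3.88% and 3.38%). The retinoblastoma relative RBL1 was at 9.55, 21.7, 26.3 and 23.3 CPM in bone marrow, against 4.50, 8.38, 0.994 and 1.60 CPM in lung (edgeR adjusted p = 0.415, DESeq2 adjusted p = 0.0241). E2F2, an activating E2F factor, was at 9.85, 24.9, 9.87 and 8.80 CPM in bone marrow, against 4.84, 1.27, 0.414 and 1.02 CPM in lung (edgeR adjusted p = 0.40, DESeq2 adjusted p = 0.0151). Both separated the sites, whereas E2F1 overlapped. The CDK inhibitor CDKN1A was at 0 to 2.85 CPM in bone marrow, 0.0848 to 3.31 CPM in lung, with 7.52 CPM in the primary library. CDKN2A, which restrains CDK4 and CDK6, was at 1.03 ± 0.472 CPM in marrow metastases, against 0.963 ± 1.06 CPM in lung metastases (SD, n = 4 each). The primary library had no count of CDKN2A, and the metastasis libraries had only 2 to 29 counts each.

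Mitosis genes, which mark the later part of the cycle, were set beside the replication genes. Of 27, 23 were higher in bone marrow, and their log2 fold changes had a median of 0.67 against 0.43 for the 37 replication genes, a difference that was not tested. The count passing was 0 in edgeR (9 higher and 0 lower at an unadjusted p under 0.05), 0 in limma voom and 2 in DESeq2, where all genes gave 6.33%, 3.88% and 3.38%. TOP2A, which untangles DNA, was at 285 ± 98.9 CPM in marrow metastases, against 110.3 ± 33.0 CPM in lung metastases (SD, n = 4 each), with an edgeR adjusted p of 0.325 and a DESeq2 adjusted p of 0.0091. Every bone marrow library lay above every lung library for 4 of the 27 mitosis genes (TOP2A, TPX2, BUB1B and PRC1) and for 0 of the 37 replication genes, against 2.82% of all genes. The spindle factor TPX2 averaged 232 ± 52.6 CPM in marrow metastases, against 82.9 ± 36.5 CPM in lung metastases (SD, n = 4 each; edgeR adjusted p = 0.329, DESeq2 adjusted p = 0.0131). The proliferation marker MKI67 was at 14.1 ± 10.9 CPM in marrow metastases, against 3.27 ± 3.65 CPM in lung metastases, with overlap.

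**Figure D4:**
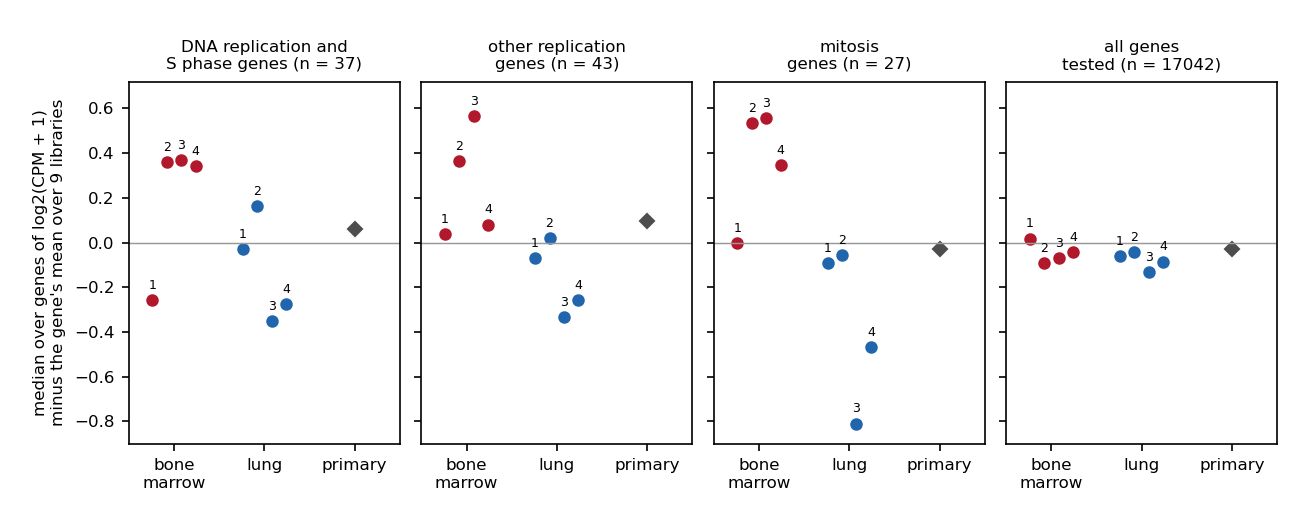
Median over genes of the deviation from each gene's mean over 9 libraries, log2(CPM + 1), for the 37 DNA replication and S phase genes, 43 other replication genes, 27 mitosis genes and all 17042 genes tested. Each point is a library, numbered by replicate; for the 37 genes bone marrow replicates 2 to 4 lie at 0.34 to 0.37 and replicate 1 at -0.26, against -0.35 to 0.16 in lung and 0.06 in the primary library.

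The second comparison set the 8 metastasis libraries against the primary tumour library. The primary tumour has 1 library, so the test assumes that it varies as the metastases do, asks whether it lies outside their spread and has no replicate check. In metastases 21 of the 37 genes were higher and 16 lower, while 57.5% of all genes had a log2 fold change above 0. The median log2 fold change was 0.071, against 0.17 over all genes tested, and it turned negative with library size alone (-0.021), in limma voom (-0.028), and without bone marrow replicate 2 (-0.0027) or lung replicate 3 (-0.0032). In edgeR 0 of 37 passed, as did 0% of all genes, and the lowest adjusted p was 0.966. At an unadjusted p under 0.05, 1 gene was higher and 0 lower, against 1.75% and 3.04% of all genes. DESeq2 and limma voom called 0 of 37, against 0.716% and 0.282% of genes.

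The primary library lay below all 8 metastasis libraries for 3 of 37 genes, where this held for 7.56% of all genes. UNG (chromosome 12, 109097574 to 109110992, hg38) was at 48.8 to 106 CPM in bone marrow and 103 to 149 CPM in lung, against 42.3 CPM in the primary library. Of the metastases, bone marrow replicate 1 came closest to the primary library. On the log2 scale the fold change was 1.33 ± 0.50 (SE; edgeR unadjusted p = 0.0261, adjusted p = 0.966). PRIM2, the regulatory primase subunit, was at 6.74 to 37.9 CPM in bone marrow and 11.6 to 30.1 CPM in lung, against 4.53 CPM in the primary library (log2 fold change 2.09 ± 1.09 SE, edgeR adjusted p = 1.00). SLBP was at 125 to 164 CPM in bone marrow and 119 to 163 CPM in lung, against 113 CPM in the primary library.

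The primary library lay above all 8 for 1 of 37 genes, where this held for 10.1% of all genes. That gene was CLSPN (chromosome 1, 35720218 to 35769967, hg38), at 15.5 to 52.4 CPM in bone marrow and 6.76 to 44.9 CPM in lung, against 63.0 CPM in the primary library. The fitted log2 fold change was -1.21 ± 0.85 (SE; edgeR adjusted p = 1.00). The primary library lay within the metastasis range for the remaining genes. For RRM1, CDC45 and MCM3 it was between the means of the sites, at 176, 31.9 and 62.4 CPM, against means of 228, 34.6 and 109 CPM in bone marrow and 77.5, 9.66 and 42.7 CPM in lung.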

How the data were processed

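RNA was measured in 9 libraries. The authors deposited estimated counts per gene symbol, with no scaling for depth. The submitters' processing notes name Trim Galore, Salmon and hg38 without versions. Per the labels' protocols, cDNA for low RNA input was made by template switching. A second deposited table gives the percent of reads assigned to each species and the fraction falling into each category of the count step, per the file headers; the sources used here do not say how these were made.

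Estimated counts were rounded, and 104 of 34934 rows, of vector and spike-in sequences (at most 0.0159% of a library), were left out. After filterByExpr and TMM, 1 edgeR 4.0.16 quasi-likelihood model with 3 groups was fitted over 17042 genes (R 4.3.3), with Benjamini-Hochberg adjustment over all of them and two-sided tests. Standard errors are the log2 fold change over the square root of F. The biological coefficient of variation was 0.925. DESeq2 1.42.0 and limma 3.58.1 voom with quality weights were alternatives, beside other scalings and filters, the metastases alone, a replicate block and libraries left out. A count of 1 read was 0.0558 to 0.0866 CPM. Chi-square tests of the counts separated all 36 pairs of libraries, with values per degree of freedom from 71.2 upward. This fit was tested on simulated data over 16183 genes with 50 genes per fold size, all of them above a set average level.

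The members and lists were chosen with earlier results of these data known, so no p is adjusted over a list. Every member may be named; genes of other lists are named where edgeR or DESeq2 called them, where sites did not overlap (at most 5 per list, by p), or among CDKN1A, CDKN2A, RB1, CCND1, MKI67 and TOP2A. Cell type markers are given beside the results as a check of the label, and those named that meet none of these rules were chosen after their values were seen. Promoters came from RefSeq, and gene positions, lengths and overlaps from GENCODE 29.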

Additional observations from a re-analysis of the deposited data

Results flagged for a closer look

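Within a site, 74 groups of 4 libraries were examined, 37 genes at 2 sites, for a library that stands far from the other 3 on the log2(CPM + 1) scale; chance marks about 5% of such groups. It marked 7, of which 6 were in bone marrow, all through replicate 1. In that library RRM1 was at 31.6 CPM (266 to 330 CPM in the other 3), FEN1 at 73.1 CPM (248 to 283), UNG at 48.8 CPM (100.2 to 106), RFC2 at 97.8 CPM (151 to 162) and RRM2 at 99.9 CPM (124 to 127), each the lowest of the site. RFC3 was the highest there, at 182 CPM against 149 to 151 CPM. In lung, RFC5 was at 202 CPM in replicate 2, against 144 to 146 CPM in the other 3.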

How the results depend on the processing

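Over 17 alternatives for bone marrow against lung and 15 for metastases against primary, 0 of the 37 genes passed, with lowest adjusted p of 0.155 and 0.29, both in DESeq2. The median log2 fold change for bone marrow against lung ran from 0.34 to 0.57 over these settings, and over single libraries left out from 0.37 to 0.57. Against the primary library the range over single libraries left out was -0.0032 to 0.155. Requiring 5 CPM or more in 4 or more libraries left 35 of the 37 genes. Log2 fold changes kept their sign for 25 of 37 genes between sites and for 28 of 37 against the primary library in every setting that gave a value; the 38 and 43 values that turned were of genes whose reported fold change was smaller than its standard error and that passed under neither setting, and were not counted as reversals. With the replicate number as a block the median between sites was 0.40 and 0 members passed. Same-numbered libraries did not deviate together (correlations of -0.056 to 0.037), and 2 of 8 libraries correlated best with their own number, so the numbers were not taken as pairs. The setting without bone marrow replicate 1 and lung replicate 3 was chosen after seeing the data. Over all genes the count called between sites was 1 in edgeR with TMM, 3 with the stricter filter, 0 without any 1 metastasis library, 468 in DESeq2 and 6 in limma voom. With 1 primary library, and with counts of under 10 in up to 4 of the 37 genes per library, depth and replication limit what can be told for CCNE1, E2F1, MCM7, CDC45, POLE2 and ORC1.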

Other observations

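For the genes that control entry into S phase, the primary library lay above all 8 metastasis libraries for 8 of 30 and below all 8 for 2, against 10.1% and 7.56% of all genes tested. The count passing was 0 of 30 in edgeR (2 higher and 2 lower in metastases at an unadjusted p under 0.05, where all genes gave 1.75% and 3.04%), DESeq2 and limma voom. Cyclin D1 (CCND1), a partner of CDK4 and CDK6, was at 184 ± 31.9 CPM in marrow metastases and 175 ± 43.4 CPM in lung metastases (SD, n = 4 each), against 313 CPM in the primary library, with an edgeR adjusted p of 1.00. RB1, which restrains E2F factors, was at 53.1 ± 46.1 CPM in marrow metastases and 30.8 ± 24.1 CPM in lung metastases, against 62.7 CPM in the primary library. Of the 27 mitosis genes 15 had a log2 fold change above 0 in metastases against primary, with a median log2 fold change of 0.071. DESeq2 called CENPA alone (0.716% of all genes), whose count was 0 in the primary library and in 5 of 8 metastasis libraries, so its fitted value is not given.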
